A study of Mus musculus with 30 samples.

Results

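The 18.5 Mb of mouse chromosome 4 from base 130000001 to base 148466452 (mm9) lie on the centromere side of Per3, a member of the Period family of the circadian clock. Every array probe that the hypothalamus files place in this interval was taken, apart from 4 probes of C1qa, C1qb and Rpl11, which the selection rule leaves out. This gave 467 probes of 324 genes among 41174 probes of 28104 genes on the array. The question was where the block of genotype differences around Per3 ends toward the centromere, and which single genes of the interval differed between the genotypes.

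Male adult Per3-/- mice and wild-type (WT) littermates on a C57Bl/6J background were compared. All mice had been kept on cycles of 3.5 h light and 3.5 h dark, and tissue was taken in the light part of cycle 17, so the controls shared this light schedule. RNA came from whole eye and from a block of tissue cut around the optic chiasm that included the suprachiasmatic nucleus, here called hypothalamus. Hypothalamus arrays of 8 WT and 8 Per3-/- mice and eye arrays of 7 WT and 7 Per3-/- mice were used. The arrays lay on 4 slides per tissue, and every slide held both genotypes.

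Genes near a knocked-out locus stay linked to it when a mutation is bred into another strain, and a stretch around the locus can keep the DNA of the strain in which the mutation was made. Such a stretch ends where recombination cut it. The paper proposes that genes in a cluster around Per3 are co-regulated within chromatin domains. It places this cluster past the telomere-side end of the interval studied here. It could not exclude that the inserted cassette altered the chromatin there. None of these accounts was tested here, and the position of the last gene that differs is given as a description. The interval holds several clusters of related genes. The secreted phospholipases A2 cut fatty acids from phospholipids outside cells, and Pla2g2d, the member named when the interval was chosen, is best known from dendritic cells and lymphoid tissue. Peptidylarginine deiminases turn arginine in proteins into citrulline, and genes for KRAB zinc-finger proteins, a fast-changing family of repressors, fill much of the telomere-side end.

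The phospholipase cluster was read by 6 probes of the array, and their leading bases are shown because the difference that passed the test in the interval was in this cluster. Each probe is 60 bases long, and its first 30 bases are given 5′ to 3′, with the position of the whole probe on mm9 chromosome 4 and the strand.
Pla2g2c (chr4:138300427-138300486, +): cttaccccaatttagaagcctttggtcctg
Pla2g2f (chr4:138306546-138306605, -): gggctcctgcatgggtatattcctatagag
Pla2g2d (chr4:138337867-138337926, +): tacacctgcaaggtcatttgctgctgtttt
Pla2g5 (chr4:138355365-138355424, -): aatgtctgtctatttttcaccgagttaggg
Pla2g2a (chr4:138390766-138390825, +): taccccaacatgttttgcaaagggaagaag
Pla2g2e (chr4:138438363-138438422, +): agtgtgacaagagagctgctctttgctttc
The full Pla2g2d probe shared at most 7 bases in a row with any of the other 5 probes, and its longest run in common with any other probe of the array was 15 bases, with a probe of Dnlz.

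The tissues carried their own markers. Sag, Cryaa, Crygs and Rpe65 were well above background on every eye array, and Avp, Oxt, Hcrt, Pmch, Trh and Vip on every hypothalamus array, where Rpe65 was at background. Sag and Cryaa were also well above background on every hypothalamus array, but lower, with WT means of -4.83 and -4.47 against 6.05 and 8.70 in the eye. Crygs was so on 5 WT and 7 Per3-/- hypothalamus arrays. Vip, Oxt and Hcrt were so on every eye array. The WT means of Oxt and Hcrt were 4.84 and 5.94 in the hypothalamus and -2.95 and -2.99 in the eye, whereas Vip was at -1.16 and -0.94, so it did not set the tissues apart. In a marker of the pituitary 2 hypothalamus arrays stood apart: the growth hormone probe lay 8.21 log2 units above the array's 75th percentile in Per3-/- mouse 1 and 3.60 units above it in WT mouse 5, against -3.55 at most in the other 14 hypothalamus arrays. Both arrays were picked by this probe alone, without the other pituitary markers Prl, Pomc and Cga. Results that rest on these arrays are given with and without them. The Per3 probe, 1.91 Mb past the interval's telomere-side end, had a log2 difference (Per3-/- minus WT) of -0.51 ± 0.09 in the hypothalamus (SE; adjusted p = 0.067 by limma) and of -0.45 ± 0.23 in the eye (adjusted p = 1). Where this probe lies relative to the deleted part of the gene is not given in the sources used here.

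The interval as a whole showed little difference between genotypes. After adjustment over all 41174 probes, 1 of the 467 probes differed in the hypothalamus, that of Pla2g2d, where 0.0413% of all probes passed, and none differed in the eye, where 0.0194% passed (limma, adjusted p under 0.05). At an unadjusted p under 0.05, 15 of the 467 probes passed in the hypothalamus and 8 in the eye, against 2.82% and 1.8% of all probes.

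A probe is called detected here where the scanner software marked it well above background on each array of that tissue. Among detected probes, 4 of 354 in the hypothalamus had an unadjusted p under 0.01, with 2 higher and 2 lower in Per3-/-, and 13 had a p under 0.05, against 3.14% of all detected probes. The share under 0.01, 1.13%, stood beside 0.545% of all detected probes on the array. None of 369 did in the eye, where the share of all such probes was 0.326%, and 6 had a p under 0.05, against 1.75% of all. The next stretch of chromosome 4 toward the telomere, which holds Per3, had 38 of 165 probes at this threshold in the hypothalamus (23.0%) and 27 of 174 in the eye (15.5%). The rest of the chromosome toward the centromere had 4 of 1104 and 1 of 1125.

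Sizes of difference followed the same split. The median absolute log2 difference in the interval was 0.0429 in the hypothalamus and 0.0474 in the eye, beside 0.0446 and 0.0513 on the centromere side and 0.0835 and 0.0967 on the telomere side. In the hypothalamus 3 of 354 probes differed by more than 0.5 (0.847%), against 0.379% of all detected probes: Pla2g2d, Pla2g5 and Kdf1, a keratinocyte factor at 0.59 ± 0.50 (SE; unadjusted p = 0.25). None of the 369 did in the eye, where 0.501% of all probes passed this size. The differences of the 2 tissues correlated weakly across the 342 probes detected in both tissues, with r = 0.18, as on the centromere side (r = 0.18, 1027 probes), while on the telomere side r was 0.80 over 160 probes. These probes share mice and arrays within a tissue, and r is given as a description.

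**Figure D1:**
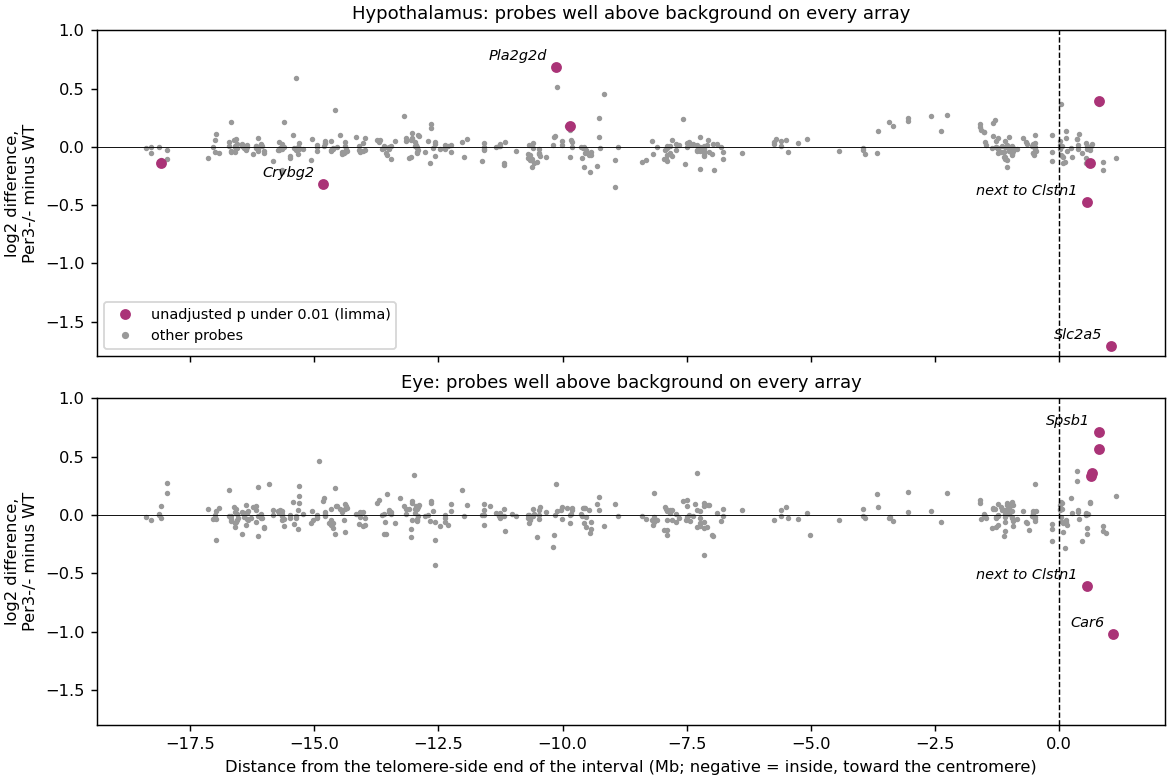
Log2 difference in signal (Per3-/- minus WT) of each detected probe, by distance in Mb from the telomere-side end of the interval (dashed line), for hypothalamus (top) and eye (bottom). Purple points have an unadjusted p under 0.01; inside the interval there are 4 in the hypothalamus and none in the eye, and they become frequent about 0.56 Mb past the end.

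By the rule used here the block of differences did not reach into the interval in either tissue. The interval was walked in 1 Mb windows from its telomere-side end, a window counted when it held a probe at unadjusted p under 0.01, and the walk stopped at 2 empty windows in a row. In both tissues the first 2 windows were empty. They held 26 and 34 tested probes in the hypothalamus and 27 and 34 in the eye. The end of the interval had been drawn with earlier results of these data known, so empty first windows do not locate the edge independently.

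The block began outside the interval, and the end of the interval had been drawn with earlier results known, 0.5 Mb short of the probe of the transcript AK036293. Going outward, the nearest detected probe to pass was the same in both tissues, that of ENSMUST00000084120 at base 149022877, 0.556 Mb past the end and about 1 kb from a probe of Clstn1, a neuronal calsyntenin. It was lower in Per3-/- by 0.47 in the hypothalamus and by 0.61 in the eye on the log2 scale. Between the end and this probe 24 probes of 16 genes in the hypothalamus and 25 probes of 17 genes in the eye did not pass, among them those of Dffa, Cort, Kif1b, Ube4b, Rbp7 and Nmnat1. The Clstn1 probe did not pass either, at -0.14 in the hypothalamus (unadjusted p = 0.017) and -0.0006 in the eye (unadjusted p = 0.99). Ctnnbip1, an inhibitor of Wnt signalling 0.474 Mb past the end, had a log2 difference of -0.22 in the eye (unadjusted p = 0.013) and -0.06 in the hypothalamus (unadjusted p = 0.29). AK036293 itself had differences of 1.06 in the eye (unadjusted p = 0.0040) and 0.51 in the hypothalamus (unadjusted p = 0.025). It did not count as detected because some WT arrays missed the mark. It was well above background on 7 Per3-/- and 5 WT eye arrays, and on 8 Per3-/- and 6 WT hypothalamus arrays.

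Looking inward, the last genes before the end were Tardbp, an RNA-binding protein, Casz1, a zinc-finger factor of retina and heart, Pex14, a peroxisome import protein, and the transcript AK035651. Their probes differed between genotypes by -0.12 to 0.10 in the hypothalamus and by -0.23 to 0.10 in the eye, with no unadjusted p under 0.05. On the outer side Dffa, Cort and Cenps had no p under 0.05 either. In the hypothalamus the stretch without a called probe ran from Tmco4 to the probe beside Clstn1, 10.4 Mb with 179 tested probes of 122 genes. In the eye it covered the whole interval, with 394 tested probes up to that same probe, and the lowest p in it was 0.010, for Zdhhc18.

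**Figure D2:**
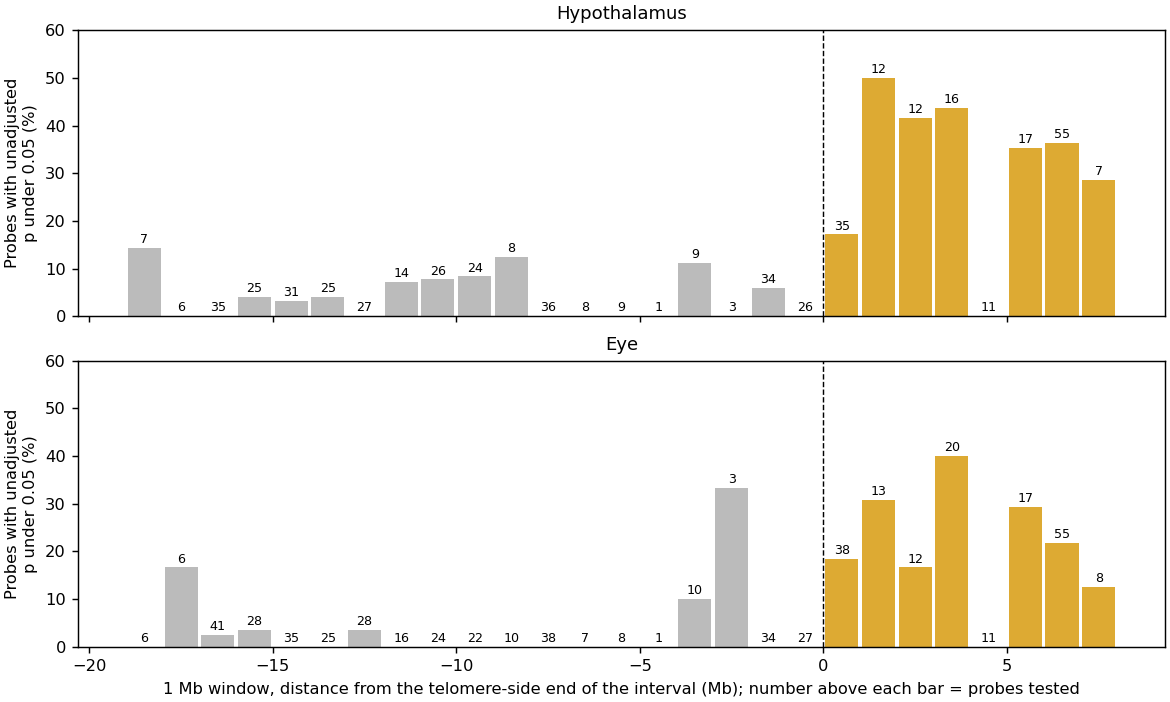
Share of probes with an unadjusted p under 0.05 (y axis, %) in 1 Mb windows by distance from the telomere-side end of the interval (x axis, Mb), for hypothalamus (top) and eye (bottom), with grey bars inside the interval, yellow bars past its end and the number of probes tested above each bar. In the hypothalamus the 2 windows next to the end on the inner side hold 0 of 26 and 2 of 34 such probes, and the 2 on the outer side 6 of 35 and 6 of 12.

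The edge in the hypothalamus moved with the settings, and few probes lie just inside it. The next 3 windows inward held 3, 9 and 1 tested probes. At an unadjusted p under 0.05 the walk went 4 windows in, to the probe of Znf41-ps at base 145419679. With the slide as a block it went 2 windows in, and without the 2 arrays of high pituitary level 4 windows in. In the eye none of the alternatives moved it from 0 windows.

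Apart from Clcn6 (unadjusted p = 0.041), the probes with an unadjusted p under 0.05 in these windows lay in a cluster of zinc-finger genes between Tnfrsf8 and Miip, a stretch of 2.26 Mb that was picked out after its values were seen and is described without a test. It held 34 probes, of which 21 probes of 14 genes were detected in the hypothalamus. In the hypothalamus 19 of the 21 were higher in Per3-/-, with a median log2 difference of 0.14 and a range of -0.01 to 0.28, beside a median of -0.0061 over all detected probes. None passed after adjustment, and 2 had an unadjusted p under 0.05. In the eye 10 of 22 were higher, with a median of -0.0079.

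Znf41-ps, a zinc-finger pseudogene, was read by 2 probes with differences of 0.24 ± 0.14 (log2, SE; unadjusted p = 0.091) and 0.22 ± 0.09 (unadjusted p = 0.023). Rex2 had a difference of 0.26 ± 0.19 (unadjusted p = 0.19) and Gm13169 of 0.28 ± 0.16 (unadjusted p = 0.11). A second Rex2 probe, well above background on no hypothalamus array, gave -0.20 (unadjusted p = 0.52). The 3 probes of Zfp984 differed by 0.10, 0.21 and 0.23, those of Zfp982 by 0.17 and 0.14 and those of Zfp985 by 0.13 each, whereas Zfp933, at the telomere-side end of the stretch, had 3 probes between -0.0021 and 0.05. Averaged over the 21 probes, the level ran from -2.17 to -1.67 (median -1.96) in WT and from -2.02 to -1.58 (median -1.81) in Per3-/- hypothalamus, so the genotypes overlapped. Several of these genes are near copies of each other. The probes of NAP028872-1 and Zfp982 shared 34 bases in a row and the 2 Zfp985 probes 54. Probes of TC1666853 and Zfp987 shared 32, of Rex2 and Zfp985 29, and of Zfp982 and TC1666853 28. Such probes do not count as independent readings.

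Without Per3-/- mouse 1 and WT mouse 5, the arrays of high pituitary level, the differences were larger: the median over the 21 probes was 0.24, 20 were higher, and 3 had an unadjusted p under 0.01. The 3 were both Znf41-ps probes, at 0.37 (unadjusted p = 0.0058) and 0.30 (unadjusted p = 0.0021), and NAP028872-1 at 0.27 (unadjusted p = 0.0078), and no adjusted p was under 0.05. With the normexp background model the differences were smaller: the median was 0.08, 17 of the 21 were higher, the range was -0.13 to 0.18, and 1 probe had an unadjusted p under 0.05. Zfp984 at base 147128608 turned from 0.10 to -0.13.

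**Figure D3:**
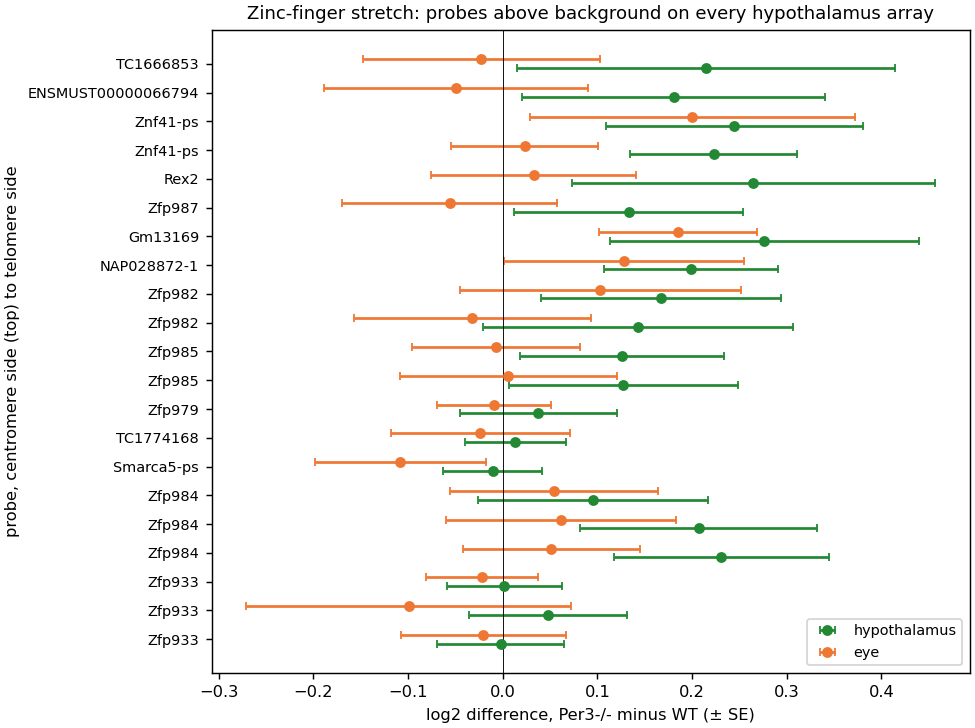
Log2 difference (Per3-/- minus WT, x axis, with SE bars) of the 21 probes of the zinc-finger stretch detected in the hypothalamus, in order from centromere side (top) to telomere side (bottom), for hypothalamus (green) and eye (orange). In the hypothalamus 19 of 21 points lie above 0, in the eye the points lie on both sides of it.

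Pla2g2d was higher in the hypothalamus of every Per3-/- mouse than in that of every WT mouse. Its probe gave 8 WT values of -5.40, -5.24, -5.23, -5.18, -5.14, -5.10, -4.97 and -4.74 log2 units relative to the array's 75th percentile. The 8 Per3-/- values were -4.66, -4.61, -4.55, -4.52, -4.46, -4.34, -4.33 and -4.08. The highest WT value thus lay below the lowest Per3-/- value. The means were -5.12 ± 0.20 and -4.44 ± 0.19 (SD, n = 8 each), a log2 difference of 0.68 ± 0.10 (SE) or 1.60-fold, with an adjusted p of 0.0105 by limma. Only 0.0437% of all probes on the array had genotypes that did not overlap in the hypothalamus, and 0.00729% with Per3-/- higher; among the 467 probes of the interval Pla2g2d was the single case. In the eye, where 0.0704% of all probes did not overlap and 0.0219% did so with Per3-/- higher, none of the 467 did.

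An exact two-sided permutation test of the means gave p = 0.00016 over 12870 arrangements, the smallest this design allows, and p = 0.0015 with genotypes exchanged within slides only (1296 arrangements). Within the 4 slides Per3-/- exceeded WT by 0.73, 0.66, 0.90 and 0.43. Leaving out each mouse in turn gave differences of 0.63 to 0.74 with adjusted p from 0.0025 to 0.036, and leaving out both arrays of high pituitary level gave 0.69 (adjusted p = 0.048). Because the gene was named with earlier results of these data known, the test restates a known difference in the same mice.

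The signal of this probe was low, and the call was lost under another treatment of the background. The processed signal was 33.3 to 82.7 units in WT and 72.6 to 107.5 units in Per3-/- hypothalamus, and only 7.94% of the probes above background there were dimmer on average. The unprocessed spot read 101.1 to 160.7 units in WT and 149.0 to 182.2 in Per3-/-, over a local background of 48.0 to 58.5. With the normexp background model together with an offset of 50 added to every spot, the difference was 0.19 ± 0.08 (unadjusted p = 0.028, adjusted p = 0.44). The probe was nonetheless marked well above background on all 30 arrays.

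In the eye the Pla2g2d probe did not separate the genotypes. WT values were -4.77, -4.56, -4.55, -4.48, -4.27, -4.11 and -3.97, and Per3-/- values -4.71, -4.38, -4.24, -4.05, -4.02, -3.84 and -3.60. The groups overlapped over most of their range. The log2 difference was 0.27 ± 0.17 (SE; 95% interval -0.10 to 0.63; adjusted p = 1), and the exact permutation test gave p = 0.15. Per3-/- was higher on each of the 4 slides, by 0.11 to 0.43. The test of the difference between tissues took same-numbered arrays of a genotype as 1 mouse, used as a random block. It gave -0.41 for eye minus hypothalamus (unadjusted p = 0.032, adjusted p = 1). With normexp it turned to 0.21, so a difference between the tissues was not shown.

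**Figure D4:**
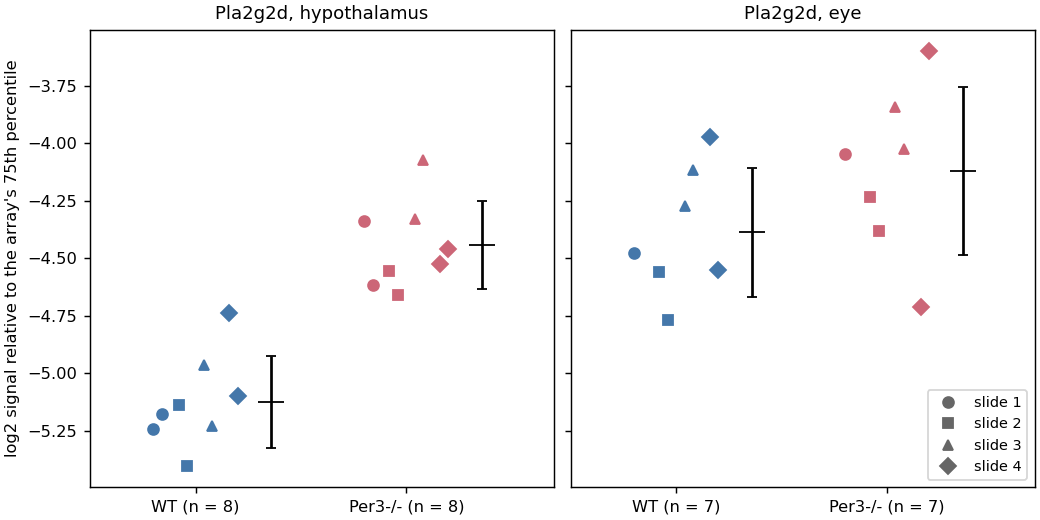
Log2 signal of the Pla2g2d probe relative to the array's 75th percentile (y axis) for each WT (blue) and Per3-/- (red) mouse in hypothalamus (left) and eye (right), with slides as symbols and the mean ± SD as a black bar. The hypothalamus groups do not overlap (WT at most -4.74, Per3-/- at least -4.66), the eye groups do.

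Dendritic cells and lymphoid tissue are known sources of Pla2g2d, and their markers were read on the same arrays. Of 5 dendritic cell and macrophage genes (Cd74, H2-Aa, Itgax, Cd209a and Lyz2), 4 were higher in Per3-/- hypothalamus, by a median of 0.15 over the 5, and 1 had an unadjusted p under 0.05, Lyz2, the macrophage lysozyme, at 0.27 (unadjusted p = 0.0094), where 2.82% of all probes had such a p. Cd209a was not above background on any hypothalamus array. Their summed linear level, in units of the 75th percentile, was 2.78 to 4.46 in WT and 3.67 to 5.50 in Per3-/-. Of Cd3e, Cd79a and Ms4a1, the lymphocyte markers, 2 were higher and none had a p under 0.05, with sums of 0.178 to 0.275 and 0.171 to 0.289. Of the choroid plexus markers Ttr, Kl and Folr1 all 3 had a positive hypothalamus difference, with a median of 0.50 and no unadjusted p under 0.05, and their summed level was 0.345 to 8.78 in WT and 0.346 to 12.1 in Per3-/-. The part of any of these cells in the Pla2g2d or Pla2g5 values was not tested, and in whole tissue more cells of a type cannot be told apart from more RNA per cell.

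No other phospholipase passed the test. Pla2g2c, on the centromere side of Pla2g2d, differed by 0.08 in the hypothalamus and -0.18 in the eye, and Pla2g2f, between them, by 0.09 and -0.0027. Pla2g5, a phospholipase of macrophages and heart 17.5 kb toward the telomere, had a hypothalamus difference of 0.51 ± 0.32 (SE; unadjusted p = 0.13) and an eye difference of 0.04. No hypothalamus array had Pla2g2a or Pla2g2e well above background; in the eye their differences were 0.19 (unadjusted p = 0.73) and 0.05 (unadjusted p = 0.86). Of the 6 phospholipases 1 passed the adjusted test in the hypothalamus and none in the eye, where none had an unadjusted p under 0.05 either. The median hypothalamus difference over all 6 was 0.09. Over the 4 detected ones it was 0.30, which rests on Pla2g5 and on Pla2g2d, the gene named with earlier results known. Pla2g2c and Pla2g2f were at 0.08 and 0.09, and the undetected Pla2g2a was at -0.34, so no rise of the whole cluster was shown. Within 500 kb of Pla2g2d on either side 29 probes of 23 genes were read, its own included. Of these 4 had an unadjusted p under 0.05 in the hypothalamus, against 2.82% of all probes: those of Pla2g2d and Kif17 and 2 of Tmco4. None did in the eye, against 1.8%. Pla2g2d was among the 4 through the choice of the window, and the 2 Tmco4 probes read 1 gene. The hypothalamus count is therefore no independent measure of a local excess.

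Tmco4, which codes for a membrane protein with coiled coils and lies 277 kb telomere-side of Pla2g2d, had the next call in that direction. Its probe at base 138614912 ran from -1.25 to -0.98 (median -1.12) in WT and from -1.09 to -0.66 (median -0.96) in Per3-/- hypothalamus, so the groups overlapped. The log2 difference was 0.18 ± 0.06 (SE; unadjusted p = 0.0072). The other 2 probes of the gene gave 0.18 (unadjusted p = 0.058) and 0.14 (unadjusted p = 0.048). In the eye the 3 probes lay between -0.06 and 0.06. Per3-/- mouse 1, an array of high pituitary level, gave the highest value, -0.66, and without it and WT mouse 5 the difference was 0.14 (unadjusted p = 0.013).

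Sdc3 and Crybg2 were the 2 probes with a negative hypothalamus difference and an unadjusted p under 0.01. Sdc3, syndecan-3, a heparan sulfate proteoglycan of neurons with a known role in hypothalamic feeding circuits, ran from 2.48 to 2.72 (median 2.61) in WT and from 2.35 to 2.54 (median 2.47) in Per3-/-. Its log2 difference was -0.14 ± 0.04 (SE; unadjusted p = 0.0036), and its other probe gave -0.11 (unadjusted p = 0.24). Crybg2, a crystallin-domain protein listed under its older name Aim1l, ran from -1.90 to -1.55 in WT and from -2.69 to -1.85 in Per3-/-, a difference of -0.32 ± 0.10 (unadjusted p = 0.0072). Without the 2 arrays of high pituitary level these values were -0.16 (unadjusted p = 0.0023) and -0.33 (unadjusted p = 0.013). The eye differences were -0.03 (unadjusted p = 0.59) for Sdc3 and 0.12 (unadjusted p = 0.42) for Crybg2. None of the 3 genes Tmco4, Sdc3 and Crybg2 had an adjusted p under 0.05 in either tissue.

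Further hypothalamus probes among the 10 of lowest p had small differences. Arhgef10l, an exchange factor for small GTPases, differed by -0.13 (unadjusted p = 0.023), Rap1gap, which switches off the GTPase Rap1, by -0.14 (unadjusted p = 0.024), and Kif17, a dendritic kinesin that carries NMDA receptor subunits, by -0.18 (unadjusted p = 0.035). Pnrc2, an adaptor in mRNA decay, differed by 0.12 (unadjusted p = 0.039). Other probes of Arhgef10l, Rap1gap and Kif17 had differences of the same sign, from -0.16 to -0.11. Their eye differences lay between -0.10 and 0.06.

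In the eye the lowest p values belonged in part to genes of immune cells. Zdhhc18, a palmitoyltransferase, had a log2 difference of 0.16 ± 0.06 (SE; unadjusted p = 0.010) and Tnfrsf1b, the second TNF receptor, one of 0.18 ± 0.07 (unadjusted p = 0.018). Laptm5, a lysosomal protein of blood cells, followed with 0.28 ± 0.11 (unadjusted p = 0.027), Cnr2, the cannabinoid receptor of immune cells, with 0.35 ± 0.15 (unadjusted p = 0.032), and C1qc, a chain of complement C1q made by microglia and macrophages, with 0.21 ± 0.10 (unadjusted p = 0.054). BC013712 and Gm13169 differed by 0.24 and 0.18, Alpl, the alkaline phosphatase of many tissues, by -0.14 (unadjusted p = 0.073), Casz1 by -0.12 (unadjusted p = 0.064) and Ubxn10 by -0.27 (unadjusted p = 0.074). The other probe of Tnfrsf1b gave 0.07 (unadjusted p = 0.70), that of Laptm5 0.19 (unadjusted p = 0.12) and that of Cnr2 0.62 (unadjusted p = 0.049). The other Casz1 probe gave -0.23 (unadjusted p = 0.16). None of these passed after adjustment.

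The leukocyte genes of the interval (Fgr, Laptm5, Cd52, Ptafr, Cnr2, C1qc, Tnfrsf1b and Tnfrsf8) were read by 12 probes. In the eye 10 were detected, 9 of the 10 were higher in Per3-/- and their median was 0.19, beside -0.0023 over all detected probes. An unadjusted p under 0.05 was found for 4 of the 12, all 4 higher, against 1.8% of all probes, and none passed after adjustment. These were both Cnr2 probes, a Laptm5 probe and a Tnfrsf1b probe, all already named above. The list was chosen with earlier results known and holds several probes per gene, so this count is not independent support. In the hypothalamus 3 of 6 were higher, the median was -0.01 and none had a p under 0.05. Of the 5 dendritic cell and macrophage genes outside the interval 3 had an unadjusted p under 0.05 in the eye, Cd74 at 0.29 (unadjusted p = 0.025), H2-Aa at 0.30 (unadjusted p = 0.040) and Lyz2 at 0.28 (unadjusted p = 0.021), while Itgax was at -0.18 and Cd209a at 0.07. Their summed level was 38.0 to 60.5 in WT and 48.9 to 67.9 in Per3-/- eyes. The lymphocyte markers summed to 0.314 to 0.673 and 0.337 to 0.569. Whether the amount of such cells moved these probes was not tested.

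**Figure D5:**
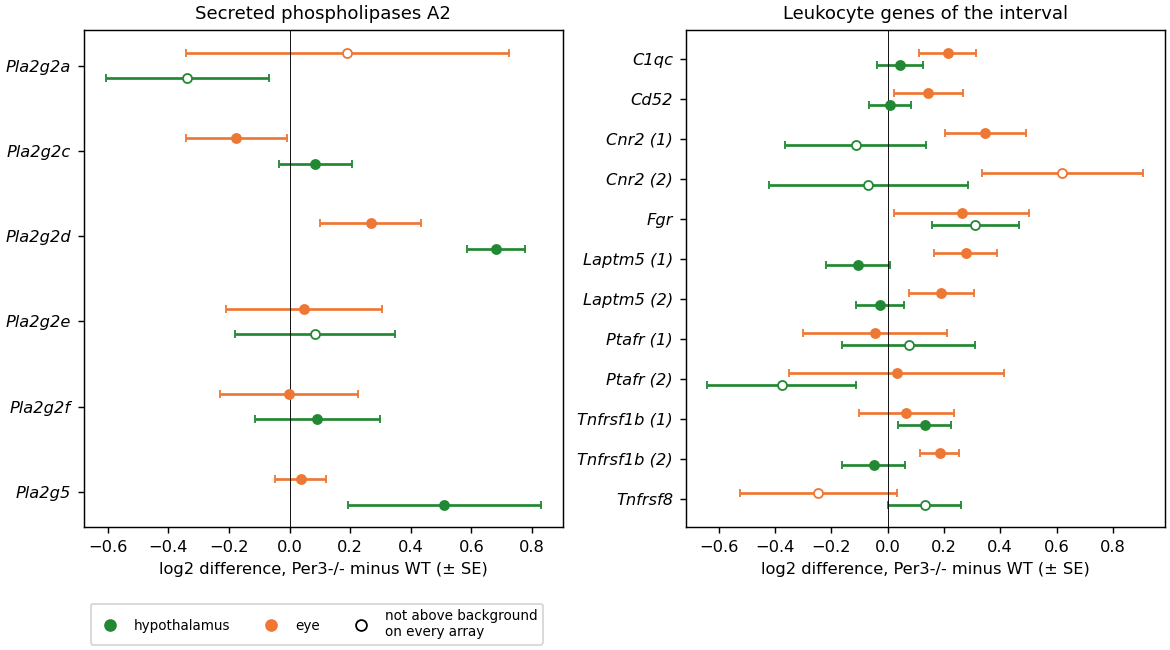
Log2 difference (Per3-/- minus WT, x axis, with SE bars) of each probe of the secreted phospholipases A2 (left) and of the leukocyte genes of the interval (right) in hypothalamus (green) and eye (orange), with open points for probes not detected and numbers marking several probes of a gene. Pla2g2d in the hypothalamus, at 0.68, is the point that passed the adjusted test, and the leukocyte probes of the eye lie mostly above 0.

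The remaining gene groups of the interval showed no adjusted call in either tissue. The 15 probes of chromatin and transcription regulators such as Arid1a, Kdm1a and Spen had median log2 differences of 0.01 in the hypothalamus and -0.01 in the eye, with no unadjusted p under 0.05. The 12 mitochondrial probes, among them those of Pink1, a kinase that marks damaged mitochondria, and Mfn2, which fuses mitochondria, had medians of -0.02 and 0.02 and none under 0.05. The 10 probes of mTOR and its neighbours, the 9 F-box probes and the 4 probes of the receptors Epha2, Epha8 and Ephb2 had none under 0.05 in either tissue, with medians between -0.03 and 0.06.

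The 14 probes around the natriuretic peptide genes Nppa and Nppb had medians of -0.0092 and 0.03. Clcn6, a chloride-proton exchanger of endosomes, gave the 1 unadjusted p under 0.05, with -0.11 (unadjusted p = 0.041) in the hypothalamus. Of 9 G protein-coupled receptor probes 3 were detected in the hypothalamus and 4 in the eye, and both probes with p under 0.05 in the eye were those of Cnr2. The 7 peptidylarginine deiminase probes had no p under 0.05, and 2 of them were detected in the hypothalamus against 5 in the eye. The 3 pancreatic-type proteases and the 9 PRAME-like genes, which are mainly expressed in oocytes and early embryos, were largely not detected, with 1 and 2 probes detected in the hypothalamus and 1 and 3 in the eye. They had no p under 0.05.

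Most members were detected in both tissues, and few were above background throughout 1 tissue and never in the other. Of the 467 probes 342 were above background on all 30 arrays and 21 on none. Another 6 probes, of Catsper4, Epb41, Hspb7, Padi4 and Pla2g2e, were above background on every eye array and on no hypothalamus array, and 1, of Kif17, the other way round. No probe of the interval was saturated. Of the 467 probes, none had an adjusted p under 0.05 for a difference of the genotype effect between eye and hypothalamus (limma), where 0.00486% of all probes passed, and 6 had an unadjusted p under 0.05, against 2.21% of all probes. Among probes detected in both tissues 1 of 342 had an unadjusted p under 0.01, against 0.328% of all, that of Tmco4, whose effect was -0.24 for eye minus hypothalamus (unadjusted p = 0.0077).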

How the data were processed

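Total RNA was labelled with Cy3 and hybridised to 1-colour Agilent Whole Mouse Genome arrays with 60-base probes. The deposited files hold Feature Extraction intensity values per spot, background-subtracted by the scanner software, with 0 or 1 marks for outlier and well-above-background spots, which the authors' software set (other values). The authors also deposited a table of log2 values, which equals the log2 signal centred on each probe's median within a tissue (within 0.05 for at least 99.96% of values). Levels here are log2 of the processed signal minus the array's 75th percentile, which was 1441 to 2253 units in the hypothalamus and 1191 to 1736 in the eye. Outlier-marked spots were dropped, up to 91 per array and none from a probe of the interval, and spots of a probe were averaged. Genotypes were compared per tissue with limma 3.58.1 in R 4.3.3, with Benjamini-Hochberg adjustment over all 41174 probes. The tissue difference of the genotype effect was fitted over both tissues with a random effect of mouse (estimated correlation 0.059). Mouse was taken from genotype and replicate number, which assumes that a number means the same animal in both tissues. Single values were tested by exact permutation (Python 3.11.15). Per the methods, a Per3-/- eye sample had been dropped after a faulty hybridization. A WT eye array is missing as well, and the paper gives no reason for it. Genes of the zinc-finger stretch were named after their values were seen. The number of arrays limits the precision, as does signal near background for dim probes. Whether same-numbered mice were littermates or a batch is not given in the sources used here.

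The fits were tested on simulated data. The members, gene lists and tests were chosen with earlier results of these data known. The text names every Pla2g2d probe, probes with an adjusted p under 0.05, the 10 probes of lowest p per tissue among those well above background on each array of at least 1 genotype, probes with p under 0.01 in both tissues, and list members. Alternatives were quantile normalization, normexp with an offset of 50, the authors' table, a background filter, the methods' t-test, the slide or the replicate number as a block, leaving out each mouse, other p thresholds and window widths. The fit without the 2 arrays of high pituitary level and the first called probe outside the interval were added after seeing the data. Positions are mm9, from the hypothalamus files. Of the 467 probes 348 were named through the RefSeq gene table by accession, 44 by symbol and 9 by synonym, and 66 kept the name in the file. A few items that these rules would name are not reported here.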

Additional observations from a re-analysis of the deposited data

Results flagged for a closer look

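Single arrays lay far from the rest of their group for 6 of the 80 groups checked over the 20 named probes, where chance gives about 1 in 20. In the hypothalamus Crybg2 was at -2.69 in Per3-/- mouse 7, with the next value at -2.24, and Tmco4 was at -0.66 in Per3-/- mouse 1, with the next at -0.90. Among WT hypothalamus arrays Pnrc2 was at 2.42 in mouse 1, C1qc at 1.21 in mouse 8 and Rap1gap at 4.48 in mouse 6. In the eye Rap1gap was at 2.89 in Per3-/- mouse 6.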

How the results depend on the processing

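In the hypothalamus the count of interval probes with an adjusted p under 0.05 was 1 under 6 of 8 alternatives, and 0 with normexp and with the replicate number as a block. Leaving out each mouse kept it at 1. Pla2g2d in the hypothalamus gave 0.19 with normexp (adjusted p = 0.44) and 0.68 with the replicate block (adjusted p = 0.18). Leaving out each mouse gave 0.63 to 0.74, and in the eye 0.18 to 0.37. Its tissue difference, -0.41, turned to 0.21 with normexp. Same-numbered mice deviated together with correlations of -0.20 to 0.40 in the hypothalamus and 0.0015 to 0.68 in the eye, so the numbers were not taken to pair the samples. The count of detected probes at an unadjusted p under 0.01, 4 in the hypothalamus, was 2 with normexp, 2 with the replicate block, 13 at p under 0.05 and 1 at p under 0.001, and 2 to 5 without a mouse; it was 2 without Per3-/- mouse 3 or 6 or WT mouse 3, 4 or 7. In the eye, 0 became 1 with the background filter, 2 with the methods' t-test, 1 with the replicate block, 6 at p under 0.05, and 0 to 2 without a mouse. The edge in the hypothalamus moved from 0 to 2 windows with the slide block, to 4 at p under 0.05 and to 4 without the arrays of high pituitary level, and stayed at 0 without any 1 mouse; in the eye it was 0 under all 11 alternatives and without any 1 mouse. The first called probe past the interval lay at base 149021715 or 149022877 in the hypothalamus and at 148940453 or 149022877 in the eye. Of 426 refits of the other 19 named results, 425 kept direction and side of the threshold. Ubxn10 in the eye reversed to 0.22 with normexp. None of these 19 had an adjusted p under 0.05 in any limma or t-test fit, the lowest being 0.44. Their side of the threshold could thus hardly change, and the count speaks mainly to direction. Where not stated above, the cause of a shift was not tested. Signal near background limits what dim probes such as Pla2g2d can show.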
